A study of Mus musculus with 9 samples.

Results

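The expression of 10 imprinted genes, H19, Meg3, Rian, Dlk1, Mest, Peg3, Peg10, Plagl1, Grb10 and Ndn, was followed in mouse cardiosphere-derived cells before and after long culture. The genes were chosen by name, with earlier results of these data known. All 10 were found once each among the 54532 genes of the deposited table. RNA sequencing of 9 libraries was used, 3 in each of 3 groups, numbered as replicates 1, 2 and 3. The pECDCs were untreated primary cells grown through cardiospheres from explanted epicardium of C57BL/6 mice aged 6 weeks, taken at passage 3 by the culture methods and titled P0 in the labels. The iECDCs were C57BL/6 cells of the same kind after lentiviral transduction with hTERT, the catalytic subunit of human telomerase driven by a CMV promoter, puromycin selection and culture to passage 30, without further treatment. The third group received SB431542, which blocks the kinase of the type I TGF-β receptor. The labels call these libraries C57BL/6 iECDCs at passage 30 exposed for 3 days. The methods instead name an epithelial clone of pECDCs treated at 10 μM, and the paper's discussion describes such clones 10 days after treatment. The starting cell of the third group and its time of exposure are therefore uncertain, as is whether a clone was selected. Every comparison with the third group carries that doubt. The iECDCs and pECDCs differ in hTERT, selection and passage at once, so these cannot be told apart. The methods call replicates biological, but give another number of them than the libraries here and do not say whether they came from separate animals or cultures, so the p-values measure the spread between libraries, which may be technical.

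Imprinted genes are transcribed mainly from the allele of 1 parent, and the choice is kept through cell division by DNA methylation laid down in the germ line. Many of them lie in clusters that share a control region, and several act on fetal growth, on metabolism or on the balance between stem cell quiescence and differentiation. Most are strongly expressed in the embryo and placenta, and many are lowered in adult tissues. The cells came from an inbred strain and only total RNA was measured, so neither the parental allele nor methylation was observed. In bulk libraries, fewer cells of a type and less RNA per cell cannot be told apart.

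Total counts ranged from 16568306 to 23951392 per library. A pair of libraries stood apart from the others of their group. The chi-square per degree of freedom between libraries of a group was 2.70 to 4.61 for most pairs, but 24.9 and 30.8 for pairs with iECDC replicate 3, and 70.3 and 71.5 for pairs with SB431542-treated replicate 2. The summed FPKM of 5 smooth muscle markers (Acta2, Tagln, Cnn1, Myh11 and Des) was 721 to 744 in pECDCs. In iECDCs it was 817 and 853 in replicates 1 and 2 and 1922 in replicate 3. In treated cells it was 139 and 140 in replicates 1 and 3 and 331 in replicate 2. Acta2 made up nearly all of this sum, at 714 to 737 in pECDCs. Cnn1 was lower in iECDC replicates 1 and 2 (3.15 and 2.80) than in pECDCs (4.96 to 5.43). Myh11 was higher there (0.508 and 0.584 against 0.150 to 0.218). FPKM is the count scaled by gene length and library depth, and is the scale used here for levels. All 8 mesenchymal markers were above 3 counts in every group, with a summed FPKM of 1632 to 2450. Single markers moved in both directions. In iECDCs against pECDCs 2 of the 8 were called higher and 4 lower, where 7.21% and 9.21% of all tested genes were. In treated cells against iECDCs 3 of the 8 were called higher and 1 lower, where 16.0% and 14.0% of all tested genes were. The mean FPKM of Col3a1 was 95.8 in pECDCs, 52.3 in iECDCs and 147 in treated cells. That of Vim was 877, 1140 and 725 in the same order. The sum of 9 epicardial markers was 39.3 to 41.4 in pECDCs, 48.5 to 57.5 in iECDCs and 65.6 to 68.2 in treated cells. Tbx18 and Krt19, which carried this sum, had a higher mean FPKM in iECDCs than in pECDCs. The mean was lower in iECDCs for Upk1b (0.292 against 0.720), Tcf21 (0.516 against 0.731) and, at low counts, Msln, Upk3b and Wt1. Of the 4 epicardial markers tested in iECDCs against pECDCs, 1 was called higher and 1 lower, where 7.21% and 9.21% of all tested genes were. From iECDCs to treated cells 3 of the 5 tested epicardial markers were called higher (Wt1, Upk3b and Tcf21) and none lower. Of all tested genes 16.0% were called higher and 14.0% lower. Wt1 (0 to 2 counts in iECDCs) and Upk3b (4 to 9) were tested only through their treated libraries, so they could hardly be called lower. Upk1b had 19, 5 and 9 counts in iECDCs and 8, 68 and 7 in treated cells. The part of the epicardial markers in the imprinted genes' values was not tested. Krt8 was at the floor in every group, Krt18 in iECDCs and treated cells and Wt1 in iECDCs, where a gene is at the floor if no library of the group has more than 3 counts. Of 8 cardiomyocyte markers, Myh6, Actc1, Myl2, Myl7 and Nppa were at the floor in all groups, and the sum over the list was 0.330 to 2.31. Tnnt2 was called higher in iECDCs than in pECDCs, and lower in treated cells than in either, with 83 to 101 counts in pECDCs, 133 to 262 in iECDCs and 7 to 34 in treated cells, and Tnni3 (12 to 33 counts) was not called. The endothelial markers Pecam1, Tie1, Tek and Emcn were at the floor in all groups, and the sum of all 6 was at most 0.165. Xist had 0 counts in every library. The Y-linked genes Ddx3y, Eif2s3y, Kdm5d and Uty were expressed in all groups. All 4 were called lower in iECDCs than in pECDCs, where 9.21% of all tested genes were. All 4 were also called lower in treated cells than in pECDCs, where 17.0% of all tested genes were. The part of this difference in the imprinted genes' values was not tested.

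Several of the transcripts carry microRNAs, short RNAs that lower the output of messenger RNAs through their seed. Matching of mature microRNAs in RefSeq (GRCm38.p6) to genes on the same strand placed 2 in H19, 3 in Meg3, 6 in Rian, 2 in Mest and 26 in Mirg, the transcript beyond Rian in the same cluster. The microRNAs themselves were not measured. A single arm is shown for each host gene, with 4 for Mirg because the last 2 of these share a seed. The seed, bases 2 to 8 from the 5′ end, is in capitals.
mmu-miR-675-5p: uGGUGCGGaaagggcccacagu
mmu-miR-770-5p: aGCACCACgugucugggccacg
mmu-miR-370-3p: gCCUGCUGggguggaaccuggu
mmu-miR-335-5p: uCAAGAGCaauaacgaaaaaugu
mmu-miR-382-5p: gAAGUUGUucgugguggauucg
mmu-miR-134-5p: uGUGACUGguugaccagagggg
mmu-miR-453: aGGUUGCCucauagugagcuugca
mmu-miR-496a-5p: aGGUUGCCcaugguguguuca
H19 holds miR-675-5p (chr7:142577112-142577133, minus strand), Meg3 miR-770-5p (chr12:109563710-109563731, plus), Rian miR-370-3p (chr12:109618305-109618326, plus) and Mest miR-335-5p (chr6:30741314-30741336, plus). Mirg holds miR-382-5p (chr12:109733781-109733802), miR-134-5p (chr12:109734145-109734166), miR-453 (chr12:109735669-109735692) and miR-496a-5p (chr12:109739132-109739152), all on the plus strand. Among the microRNAs placed, miR-453 and miR-496a-5p were the only pair with the same seed, GGUUGCC.

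Meg3 fell in iECDCs, and Peg3 and its neighbour Usp29 both rose in treated cells against iECDCs, so the sequences upstream of Meg3 and between the starts of Peg3 and Usp29 are shown. The call of Meg3 was lost under some other settings and that of Usp29 under most, as given for each gene below. Both are from RefSeq on GRCm38.p6 and are written on the plus strand. The first is the 250 bases before the RefSeq start of Meg3, at chr12:109540746-109540995, and the second is the 163 bases between the divergent starts, at chr7:6730420-6730582. Capitals mark TGACGTCA, which reads the same on both strands and is known as a cAMP response element, and CCAAT on either strand. These motifs do not overlap here.
Meg3 upstream: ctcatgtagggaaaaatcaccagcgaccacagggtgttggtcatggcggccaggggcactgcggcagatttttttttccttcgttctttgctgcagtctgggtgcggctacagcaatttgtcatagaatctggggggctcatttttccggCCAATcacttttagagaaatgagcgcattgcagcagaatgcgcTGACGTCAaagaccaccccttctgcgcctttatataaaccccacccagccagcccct
Peg3-Usp29 between starts: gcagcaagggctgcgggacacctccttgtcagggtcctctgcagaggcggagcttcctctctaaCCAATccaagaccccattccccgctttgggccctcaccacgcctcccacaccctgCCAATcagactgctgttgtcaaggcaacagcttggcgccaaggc
TGACGTCA began 57 bases before the Meg3 start. It was found in 588 of the 32851 promoter windows of 300 bases in the reference table (1.79%), and CCAAT or its complement in 37.4% of them, so the latter is common. The Peg3 and Usp29 windows also hold TGACGTCA, but not between the starts. Of the 2 Grb10 windows, the one at the outermost start held 45 CpG dinucleotides, a number that 1.9% of all windows reach, while the Rian window held 0. H19 and Peg10 had no matching entry.

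The level of the 10 genes differed widely in pECDCs. Ndn, a growth-restraining member of the MAGE family that is paternally expressed, had the highest level, with a mean FPKM of 26.0 ± 0.647 (SD, n = 3). Next came Rian at 9.68, Meg3 at 6.76, Peg10 at 4.90 and Peg3 at 1.63, and the ranges of these neighbours in the order did not overlap. Grb10 (0.532) and Dlk1 (0.460) overlapped in range, and Mest, Plagl1 and H19 lay at 0.195, 0.125 and 0.0695. In iECDCs Ndn was again first, Peg10 and Rian overlapped in the next places, and Grb10 was last at 0.0392, overlapping H19. In treated cells Peg3 stood second at 7.07, and its range overlapped that of Peg10.

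**Figure D1:**
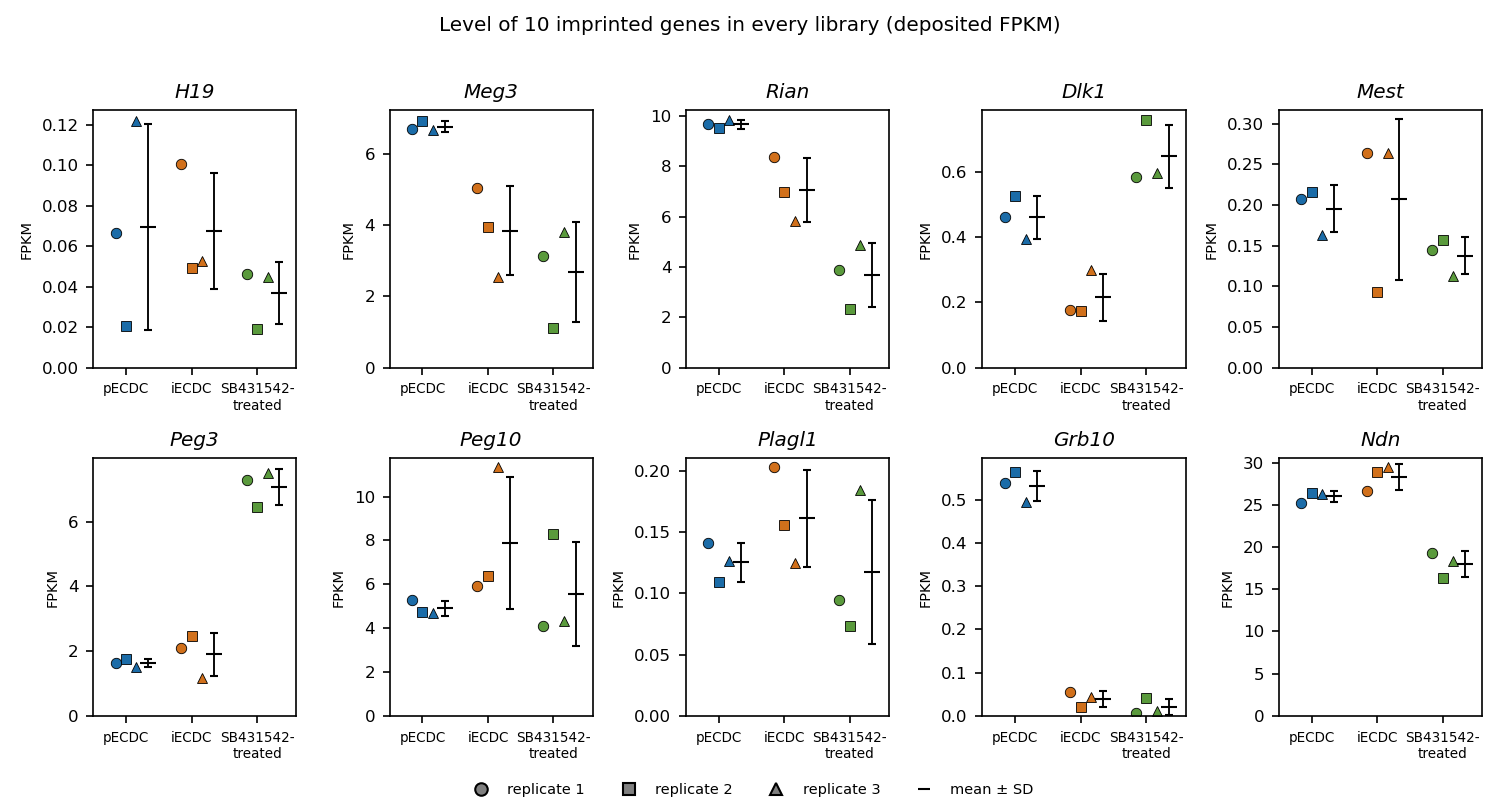
Deposited FPKM (vertical axis, from 0, with its own scale in each panel) of the 10 imprinted genes in pECDC, iECDC and SB431542-treated libraries. Symbols are single libraries, marked by replicate, and the bar beside them is the mean ± SD of 3 libraries. Grb10 is below 0.055 in every iECDC library against 0.495 or more in pECDCs, and Peg3 is above 6.4 only in treated libraries.

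Against pECDCs, iECDCs had lower RNA of 4 of the 10 genes, and none of the 10 was called higher. Grb10, an adaptor that binds the insulin and IGF1 receptors, fell 13.2-fold, Dlk1 fell 2.17-fold, Meg3 1.77-fold and Rian 1.38-fold. The test was edgeR's quasi-likelihood test on counts with Benjamini-Hochberg adjustment over 13752 genes, and a gene was called at an adjusted p under 0.05. Of the 10 genes 9 had enough counts to be tested, and 4 of the 9 were called, where 16.4% of all tested genes were called (9.21% lower and 7.21% higher). The libraries of the groups did not overlap for 6 of the 9, against 39.6% of all tested genes. The median log2 fold change of the 9 was 0.09, and that of all tested genes was -0.0018. Leaving out a library moved the number of called genes from 1 to 6, with 6 without iECDC replicate 3, which stood apart, 1 without iECDC replicate 2 or pECDC replicate 1 or 2, and 2 without pECDC replicate 3. The share of all tested genes called moved with it, from 7.39% to 31.7%, with 31.7% without iECDC replicate 3, 1829 of 14067 genes without iECDC replicate 2 and 7.39% to 7.63% without a pECDC replicate.

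Grb10, on chromosome 11 (GRCm38, chr11:11930508-12038683, minus strand), is expressed from the maternal allele in most tissues and restrains growth. Its counts were 120, 102 and 105 in pECDC replicates 1 to 3, 10, 3 and 6 in iECDCs, and 1, 8 and 2 in treated cells. Every pECDC library was far above every library of the other groups. In iECDCs the log2 fold change was -3.72 with a standard error of 0.269 (adjusted p = 4.7e-05, edgeR), and Grb10 was called in all 14 alternatives that gave it a value, with an adjusted p of at most 0.000676. In treated cells against pECDCs the log2 fold change was -4.60 with a standard error of 0.421 (adjusted p = 0.000623, edgeR). Between treated cells and iECDCs Grb10 had too few counts for a test, and the libraries overlapped in their FPKM, at 0.00627 to 0.0418 and 0.0201 to 0.0545.

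Dlk1, Meg3, Rian and Mirg lie side by side on chromosome 12. Dlk1 (chr12:109452823-109463336, plus strand) encodes a transmembrane protein with EGF repeats that restrains adipocyte differentiation, and is expressed from the paternal allele. Meg3 (chr12:109541001-109571726), Rian (chr12:109603940-109661716) and Mirg (chr12:109729764-109749460) are long noncoding RNAs on the same strand, expressed from the maternal allele, of which Rian carries small nucleolar RNAs.

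Meg3 had an FPKM of 6.70, 6.93 and 6.66 in pECDC replicates 1 to 3, then 5.05, 3.93 and 2.55 in iECDCs and 3.14, 1.13 and 3.81 in treated cells. All pECDC libraries lay above all others, whereas iECDC and treated libraries overlapped. The log2 fold change of Meg3 in iECDCs was -0.82 with a standard error of 0.195 (adjusted p = 0.0214, edgeR). It was -0.51 between treated cells and iECDCs (standard error 0.414, adjusted p = 0.379) and -1.32 between treated cells and pECDCs (standard error 0.385, adjusted p = 0.0350). The lowest Meg3 of each group of long-cultured or treated cells was in the library that stood apart, iECDC replicate 3 and treated replicate 2, which also had the highest smooth muscle sums. The part of those libraries' other differences in the level of Meg3 was not tested. Without both of them, Meg3 fell by 0.36 on the log2 scale between treated cells and iECDCs (adjusted p = 0.00101). The call in iECDCs against pECDCs was lost without iECDC replicate 2 (adjusted p = 0.0617), without pECDC replicate 1 (0.0780), 2 (0.0823) or 3 (0.0770) and with all 9 libraries in the fit (0.239). That in treated cells against pECDCs was lost without treated replicate 1 (0.0761) and without pECDC replicate 1 (0.0945), 2 (0.0974) or 3 (0.0939).

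Rian followed the same order of groups. Its FPKM was 9.68, 9.51 and 9.85 in pECDCs, 8.37, 6.99 and 5.85 in iECDCs, and 3.90, 2.34 and 4.86 in treated cells. No group overlapped another. Rian fell by 0.46 on the log2 scale in iECDCs (standard error 0.115, adjusted p = 0.0253, edgeR), by 0.92 from iECDCs to treated cells (0.256, adjusted p = 0.0293) and by 1.38 from pECDCs to treated cells (0.240, adjusted p = 0.00565). The last of these was called in all 15 alternatives. The first was lost without iECDC replicate 2 (adjusted p = 0.0726), without pECDC replicate 1 (0.0974), 2 (0.0879) or 3 (0.104) and with all 9 libraries in the fit (0.270). The second was lost without treated replicate 1 (0.0780) and without iECDC replicate 1 (0.103) or 2 (0.0767), and was kept without both libraries that stood apart (-0.80, adjusted p = 2.1e-09).

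Mirg, which is not among the 10 but is the next transcript of the cluster, had 106, 113 and 124 counts in pECDCs, 87, 66 and 48 in iECDCs and 34, 36 and 38 in treated cells. It fell by 0.99 on the log2 scale from iECDCs to treated cells (standard error 0.234, adjusted p = 0.0169, edgeR), and its value in iECDCs against pECDCs was -0.42 (0.177, adjusted p = 0.141). The FPKM ratio of Mirg to Rian had a median of 0.0739 in pECDCs, 0.0732 in iECDCs and 0.0682 in treated cells, and that of Meg3 to Rian 0.692, 0.563 and 0.785. Across the 9 libraries Pearson's r of depth-scaled log2 counts was 0.94 between Meg3 and Rian, 0.95 between Rian and Mirg and 0.83 between Meg3 and Mirg, and Rian was the 73rd closest of 14209 genes to Meg3. Mirg was the 93rd closest to Rian and the 475th closest to Meg3. These coefficients describe 9 libraries in 3 groups and carry the differences between groups. Rtl1, a paternally expressed retrotransposon-derived gene of the cluster, had 1 to 8 counts, and Dio3, a thyroid hormone deiodinase gene at its far end, had 0 counts in all libraries but treated replicate 2, which had 4.

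Dlk1, at the other side of the cluster, took a different course from the noncoding RNAs. Its counts were 64, 59 and 52 in pECDCs, 20, 16 and 26 in iECDCs and 58, 90 and 61 in treated cells. All iECDC libraries lay below all others, and treated libraries lay above pECDC libraries in FPKM (0.585 to 0.756 against 0.394 to 0.524). In iECDCs Dlk1 fell by 1.12 on the log2 scale (standard error 0.257, adjusted p = 0.0190, edgeR). From iECDCs to treated cells it rose 3.04-fold, by 1.61 on the log2 scale (0.288, adjusted p = 0.00644), and was called in all 16 alternatives. Against pECDCs the treated cells gave a log2 fold change of 0.50 (0.192, adjusted p = 0.0805). The fall in iECDCs was no longer called without iECDC replicate 1 (adjusted p = 0.0590) or 2 (0.0635) or without pECDC replicate 1 (0.0776) or 2 (0.0849), with log2 fold changes of -0.98 to -1.11. The FPKM ratio of Meg3 to Dlk1 was 13.2 to 16.9 in pECDCs, 8.53 to 28.8 in iECDCs and 1.49 to 6.39 in treated cells, the last range lying below both others.

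**Figure D2:**
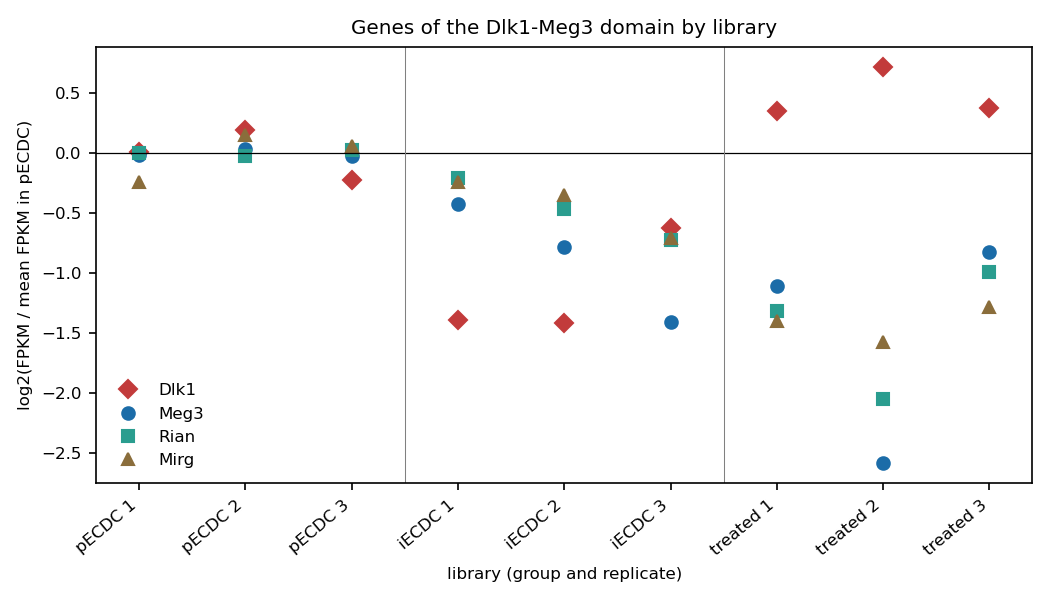
Level of Dlk1, Meg3, Rian and Mirg in each of the 9 libraries (horizontal axis), as the log2 ratio of its FPKM to the gene's mean FPKM in pECDCs (vertical axis, 0 being that mean). Each symbol is 1 gene in 1 library. Dlk1 is below 0 in all iECDC and above 0 in all treated libraries, while the 3 noncoding RNAs are below 0 in both groups, with Meg3 and Rian lowest in treated replicate 2.

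Among the genes expressed from the paternal allele, Peg3 and Ndn moved in opposite directions in treated cells. In that comparison, SB431542-treated cells against iECDCs, 8 of the 10 genes were tested, 2 rose (Dlk1 and Peg3) and 2 fell (Rian and Ndn). Among all 13559 genes tested 30.0% were called, 16.0% higher and 14.0% lower. The groups did not overlap for 4 of the 8, against 46.5% of all tested genes. The median log2 fold change of the 8 was -0.49, and that of all tested genes was 0.0014. Without both libraries that stood apart, 6 of the 8 were called, Meg3 and Peg10 being added, while the share of all tested genes called went up to 64.5%.

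Peg3 (chr7:6703892-6730431, minus strand) encodes a large zinc finger protein. Its FPKM was 1.63, 1.77 and 1.501 in pECDCs, 2.08, 2.47 and 1.18 in iECDCs, and 7.28, 6.44 and 7.49 in treated cells. The treated libraries lay above all others, and the iECDC libraries lay on both sides of the pECDC libraries, with replicate 3 lowest. From iECDCs to treated cells Peg3 rose 3.73-fold, by 1.90 on the log2 scale (standard error 0.241, adjusted p = 0.00180, edgeR). Against pECDCs it rose 4.36-fold, by 2.12 on the log2 scale (0.0980, adjusted p = 6.3e-05). These calls were made in all 16 and all 15 alternatives. In iECDCs against pECDCs the log2 fold change was 0.22 (0.219, adjusted p = 0.536), and without iECDC replicate 3, which stood apart, Peg3 was called with a rise of 0.47 (adjusted p = 0.000770).

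Usp29, a deubiquitinase gene that starts next to Peg3 in the opposite direction, had 3, 2 and 3 counts in pECDCs, 9, 6 and 2 in iECDCs and 14, 24 and 16 in treated cells. Its treated libraries were the highest. It rose by 1.54 on the log2 scale from iECDCs to treated cells (standard error 0.437, adjusted p = 0.0317, edgeR), a call made in only 5 of 15 alternatives. With 2 to 9 counts in iECDCs, Usp29 was tested only through its treated libraries, so it could hardly be called lower. Against a floor of 3 counts per library, treated cells had at least 7.01-fold more Usp29 than pECDCs. Pearson's r between Peg3 and Usp29 over the 9 libraries was 0.93, and Usp29 was the 193rd closest of 14209 genes to Peg3. This coefficient too carries the differences between groups.

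Ndn (chr7:62346569-62350262, plus strand) had an FPKM of 25.3, 26.4 and 26.3 in pECDCs, 26.6, 28.8 and 29.5 in iECDCs and 19.3, 16.3 and 18.3 in treated cells. The treated libraries lay below all others. Ndn fell by 0.64 on the log2 scale from iECDCs to treated cells (standard error 0.106, adjusted p = 0.00472, edgeR) and by 0.53 from pECDCs (0.0821, adjusted p = 0.00382). All alternatives, 16 for the former and 15 for the latter, kept these calls. In iECDCs the log2 fold change was 0.11 (0.0624, adjusted p = 0.272), although the libraries of the groups did not overlap. The 3 genes closest to Ndn over the 9 libraries were Rpn1, Ctsh and Irs1, with Pearson's r of 0.997, 0.991 and 0.987. They are the highest of 14209 genes, and their r carries the differences between groups.

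Peg10 (chr6:4747306-4760517, plus strand) derives from a retrotransposon and is needed for the placenta. Its FPKM was 5.28, 4.74 and 4.68 in pECDCs, 5.91, 6.36 and 11.3 in iECDCs, and 4.09, 8.31 and 4.33 in treated cells. The highest library of each later group was the one that stood apart, iECDC replicate 3 and treated replicate 2, where the smooth muscle sums were highest too. All iECDC libraries were above all pECDC libraries, but the log2 fold change of 0.66 was not called (standard error 0.215, adjusted p = 0.0669, edgeR). It was called with DESeq2 (0.68, adjusted p = 0.0108), with no filter on low counts (0.65, adjusted p = 2.1e-07), without iECDC replicate 1 (0.84, adjusted p = 0.0291) and without iECDC replicate 3 (0.31, adjusted p = 0.00279). Between treated cells and iECDCs the value was -0.48 (0.326, adjusted p = 0.289), and without treated replicate 2 it was called at -0.89 (adjusted p = 0.0164). Between treated cells and pECDCs it was 0.20 (0.260, adjusted p = 0.589), and without treated replicate 2 it turned to -0.21 (adjusted p = 0.0196).

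Sgce, which encodes ε-sarcoglycan and starts beside Peg10 on the other strand, had 706 to 1264 counts. Its log2 fold changes were -0.11 in iECDCs against pECDCs (adjusted p = 0.300, edgeR) and -0.14 in treated cells against iECDCs (adjusted p = 0.316). The FPKM ratio of Peg10 to Sgce was 0.917 to 1.14 in pECDCs, 1.24 to 2.62 in iECDCs and 0.996 to 2.22 in treated cells, highest in the libraries that stood apart. Pearson's r between the pair over the 9 libraries was -0.38. The genes closest to Peg10 were Kif20a, a mitotic kinesin, Med22, a Mediator subunit, and Nadk, the NAD kinase, with r of 0.993, 0.989 and 0.984. Those closest to Rian were Smim27, Ostc and Plod2, with r of 0.997, 0.991 and 0.990. For each of Peg10 and Rian these are the highest of 14209 genes. Their r carries the differences between groups and those of the libraries that stood apart.

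Mest, Plagl1 and H19 were near the low end of the measurable range in every group. Mest (chr6:30723547-30748465), a paternally expressed gene for a protein with a hydrolase fold, had 20, 17 and 15 counts in pECDCs, 21, 6 and 16 in iECDCs and 10, 13 and 8 in treated cells. Copg2, which overlaps Mest on the other strand, had 498 to 792 counts, and no source used here says whether the counting used the strand, so the small counts of Mest are uncertain. Plagl1 (chr10:13060504-13131694), a zinc finger transcription factor gene, had 27, 17 and 23 counts in pECDCs, 32, 20 and 15 in iECDCs and 13, 12 and 26 in treated cells. H19 (chr7:142575529-142578143), a maternally expressed noncoding RNA, had 4, 1 and 7, then 5, 2 and 2, then 2, 1 and 2 counts, too few for a test. Neither Mest nor Plagl1 was called in any comparison. Their log2 fold changes were 0.09 (standard error 0.382) and 0.36 (0.268) in iECDCs against pECDCs, and -0.57 (0.445) and -0.47 (0.406) in treated cells against iECDCs.

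Igf2, the fetal growth factor gene that neighbours H19, had 0, 2 and 0 counts in pECDCs, 0, 0 and 1 in iECDCs and 33, 7 and 32 in treated cells. All treated libraries were above all others, with the lowest value in replicate 2. Igf2 did not pass the count filter, so it has no test. Against a floor of 3 counts per library, treated cells had at least 7.59-fold more Igf2 than iECDCs and at least 9.88-fold more than pECDCs.

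In treated cells against pECDCs, 9 of the 10 genes were tested. Peg3 rose, and Meg3, Rian, Grb10 and Ndn fell, so 5 were called, against 34.8% of 14015 tested genes (17.9% higher and 17.0% lower). The groups did not overlap for 7 of the 9, against 51.5% of all tested genes. This comparison shares its libraries with both others and is no separate evidence for them.

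**Figure D3:**
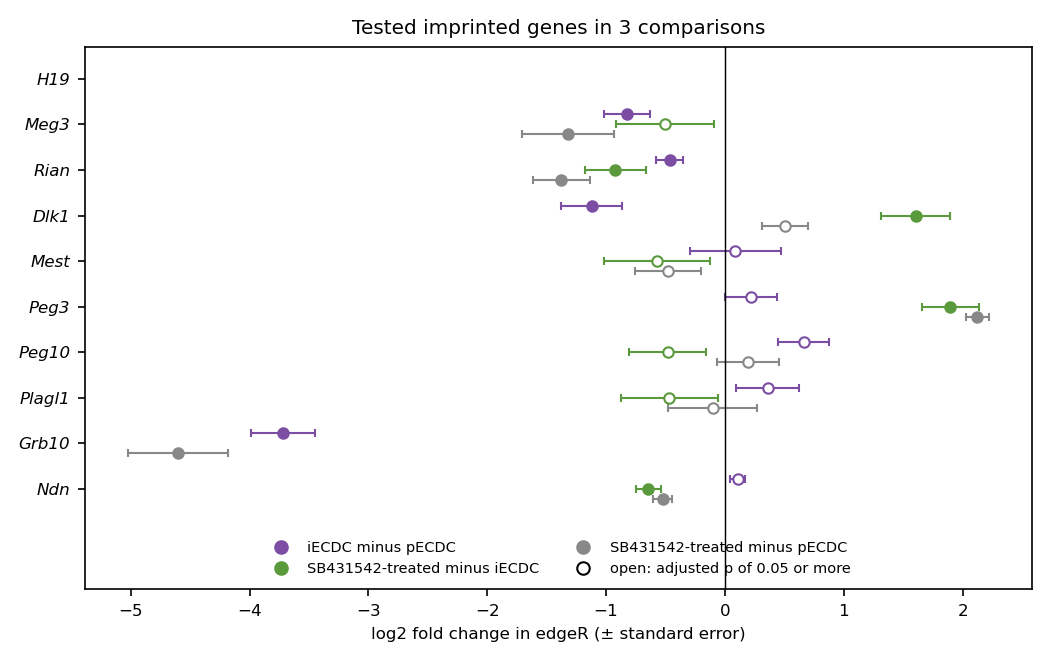
Log2 fold change (horizontal axis) of the imprinted genes in 3 comparisons, with the standard error from edgeR as bars. Filled symbols had an adjusted p under 0.05, and a gene without a symbol was not tested in that comparison. Grb10 lies furthest to the left at -3.72 and -4.60, and Peg3 furthest to the right at 1.90 and 2.12 in the comparisons with treated cells.

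Other genes, 76 neighbours or genes listed as imprinted, some only in particular tissues, were looked up beside the 10, and 75 were found, all but Igf2as. Whether each of them is imprinted in mouse was not checked. In iECDCs against pECDCs 44 of them were tested, 3 were higher and 4 were lower, with a median log2 fold change of -0.02. The share called, 15.9%, was near the 16.4% of all tested genes. Gatm, the first enzyme of creatine synthesis, fell by 1.85 on the log2 scale (standard error 0.184, adjusted p = 0.000276, edgeR), from 134 to 136 counts per library in pECDCs to 22 to 33 in iECDCs. Igf2r, the receptor that clears IGF2, fell by 0.44 (adjusted p = 0.00464) and its antisense noncoding RNA Airn by 0.87 (adjusted p = 0.0265). As strand use in counting is not stated, reads of Igf2r and Airn may be mixed. Dcn, the proteoglycan decorin, fell by 0.72 (adjusted p = 0.0403). The genes that rose were Sfmbt2, a Polycomb group gene, by 0.58 (adjusted p = 0.0206), Ampd3, an AMP deaminase gene, by 0.50 (adjusted p = 0.0288), and Peg12, a neighbour of Ndn, by 0.32 (adjusted p = 0.0260).

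In treated cells against iECDCs, 46 of them were tested, 9 were higher and 10 lower, with a median log2 fold change of 0.04. The share called was 41.3%, against 30.0% of all tested genes (16.0% higher and 14.0% lower). Dcn had 46, 52 and 43 counts in iECDCs and 1784, 421 and 1975 in treated cells, a rise of 4.83 on the log2 scale (standard error 0.636, adjusted p = 0.00205, edgeR). Wt1, a transcription factor gene of the embryonic epicardium, had 2, 2 and 0 counts in iECDCs and 43, 14 and 39 in treated cells, at least 10.05-fold more. Wt1 is also one of the epicardial markers above, so the lists are not separate, and it was tested only through its treated libraries. In Dcn and Wt1, as in Igf2, treated replicate 2 was the lowest of its group. Sfmbt2 rose by 1.07 (adjusted p = 0.00763), Qpct, a glutaminyl cyclase gene, by 1.01 (adjusted p = 0.0151) and Airn by 0.92 (adjusted p = 0.0390).

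Of the genes that fell in the same comparison, Asb4 and Tfpi2 are neighbours of Peg10. Asb4, which encodes a protein with ankyrin repeats, fell by 2.72 on the log2 scale (adjusted p = 0.00357, edgeR) and Tfpi2, a protease inhibitor gene, fell by 2.30 (adjusted p = 0.000591). Ampd3 fell by 2.003 (adjusted p = 0.000674), Nap1l5, of the nucleosome assembly protein family, by 1.56 (adjusted p = 0.0167) and Htr2a, a serotonin receptor gene, by 1.21 (adjusted p = 0.0162). In treated cells against pECDCs 47 were tested, 11 were higher and 11 lower, a share of 46.8% against 34.8% of all tested genes (17.9% higher and 17.0% lower).

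**Figure D4:**
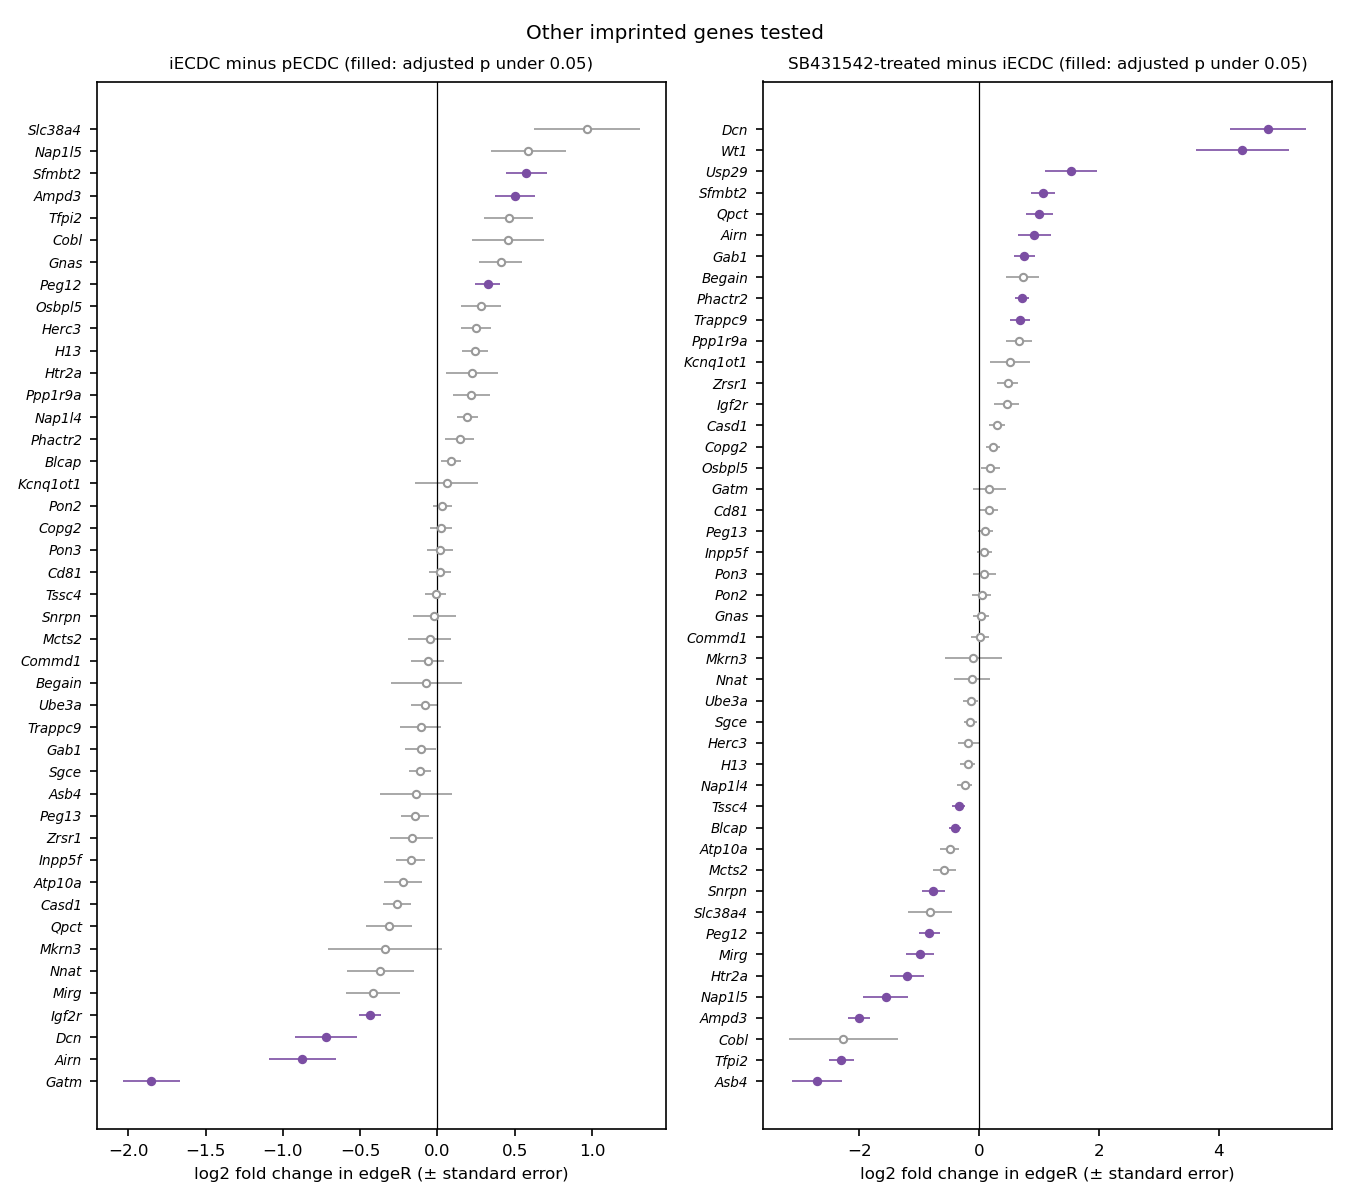
Log2 fold change from edgeR with its standard error (horizontal axis) of the other imprinted genes that were tested, 44 in iECDCs against pECDCs (left) and 46 in treated cells against iECDCs (right), each gene on its own line in order of the value. Filled symbols had an adjusted p under 0.05. Gatm is lowest on the left at -1.85, and Dcn is highest on the right at 4.83. The fitted value of Wt1 rests on 0 to 2 counts per iECDC library.

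Of 15 genes of the machinery that keeps imprints, 14 were tested in iECDCs against pECDCs, and 2 were called (14.3%, against 16.4% of all tested genes). Uhrf1, which guides the maintenance methyltransferase to newly copied DNA, rose by 0.31 on the log2 scale (standard error 0.0751, adjusted p = 0.0231, edgeR), and Tet1, which oxidizes methylated cytosine, fell by 0.60 (0.177, adjusted p = 0.0496), a call made in 2 of 15 alternatives. Dnmt1, the maintenance methyltransferase, had a log2 fold change of 0.22 (0.0698, adjusted p = 0.0606), and Zfp57, a zinc finger protein that binds methylated imprints, of 0.05 (0.146, adjusted p = 0.836). In treated cells against iECDCs 3 of 14 were called (21.4%, against 30.0% of all tested genes). Tet2 rose by 1.07 (adjusted p = 0.0138) and Tet3 by 0.63 (adjusted p = 0.00983), both enzymes of the Tet1 family, and Hells, a chromatin remodeller, fell by 0.57 (adjusted p = 0.0235).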

How the data were processed

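RNA sequencing libraries of 3 groups, 3 each, were grouped by their labels. The authors deposited a table of raw read counts per gene, and beside them FPKM values in which each count is scaled by gene length and a constant of the library. Columns of the authors' own comparisons (fold changes, p-values and group means) were left unused. The submitters' processing notes name Bowtie2 2.0.6, TopHat2 2.0.9 and mm9, but 53499 of the 54409 genes matched to GENCODE M21 on GRCm38, and all 10 imprinted genes, have the same start and end there. The read counter is not given in the sources used here. The labels and the paper also differ on library kit and sequencer, and the paper's methods give fewer replicates than the table holds.

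The main test was that of edgeR 4.0.16 (R 4.3.3) on counts, after filterByExpr and TMM normalization, by the quasi-likelihood test and Benjamini-Hochberg adjustment over all tested genes, using only the libraries of the compared groups. Alternatives used DESeq2 1.42.0, limma 3.58.1 on log2(FPKM + 1) or log2(FPKM + 0.1), other normalizations and filters, all 9 libraries, a replicate block, and each library left out. Leaving out both libraries that stood apart was added after seeing the data. Total counts were 19462912 to 23951392 in pECDCs, 16568306 to 20204216 in iECDCs and 17063137 to 20849975 in treated cells. Floors of 3 counts cover counting error only. The scripts were tested on simulated data.

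The 10 genes and the lists were chosen with earlier results of these data known. Named beside the 10 were the called genes of the imprinted lists, by size of change and at most 12 per comparison in iECDCs against pECDCs and treated cells against iECDCs, Igf2, Mirg, Rtl1, Dio3 and Sgce, the called genes of imprint maintenance, and the 3 genes most like Ndn, Rian and Peg10. Usp29 against pECDCs, Copg2, Dnmt1, Zfp57, Xist and the Y-linked genes were named after their values were seen.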

Additional observations from a re-analysis of the deposited data

How the results depend on the processing

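Called genes among the 10 numbered 4 in iECDCs against pECDCs, 4 in treated cells against iECDCs and 5 in treated cells against pECDCs. With all 9 libraries in the fit the first became 2, listed imprinted genes fell from 7 to 1 and all genes from 2258 to 671; without a filter on low counts, 14 listed genes were called. Leaving out each library gave 1 to 6, 3 to 5 and 4 to 6 of the 10, 3 to 17, 7 to 30 and 13 to 38 listed genes (main 7, 19 and 22), and 1036 to 4467, 1707 to 7001 and 2453 to 9188 of all genes (main 2258, 4061 and 4881). Without both libraries that stood apart, treated cells against iECDCs gave 37 listed and 8951 genes. Direction turned for Mest in iECDCs against pECDCs (-0.00055 with limma on log2(FPKM + 0.1), -0.16 without iECDC replicate 1, -0.08 without iECDC replicate 3 and -0.03 without pECDC replicate 3, with 0.42 the highest when a library was left out) and, in treated cells against pECDCs, for Peg10 without treated replicate 2 (-0.21, the others reaching 0.38) and Plagl1 without treated replicate 1 (0.02) or 2 (0.16, the others reaching -0.58). Fewer libraries leave fewer degrees of freedom; beyond that the cause was not tested. Replicate numbers did not pair the libraries (correlations of same-numbered libraries from -0.24 to 0.04), and the replicate block gave 4, 4 and 5 of the 10, 6, 15 and 20 listed genes and 1791, 3038 and 3886 of all genes. H19, Igf2, Rtl1 and Dio3 did not pass the count filter and so have no main test.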
